A study of Saccharomyces cerevisiae with 24 samples.

Results

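The core histone genes of budding yeast (Saccharomyces cerevisiae) lie in 4 divergent gene pairs, and their replication was followed here in 1 synchronous S-phase. The 8 genes are HTA1 and HTB1, HTA2 and HTB2, HHF1 and HHT1, and HHF2 and HHT2. They were chosen by name, and every 1-kb bin that overlaps a pair, from the outer end of one gene to the outer end of its partner, was taken as a member. This gave 9 bins of the 11302 bins with a fitted replication time, and all 9 had a value at all 11 time points in both strains.

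The data are whole-genome sequencing of 2 strains released from a G1 arrest by alpha factor, a mating pheromone. Each strain had 1 G1 sample and 1 sample at 5, 10, 15, 20, 25, 30, 35, 40, 45, 50 and 60 min after release, 24 samples in all. Cells grew in raffinose, received galactose while arrested and were released into galactose medium. With a single library for every strain and time, no p-values are given and the differences between strains have no replicate check.

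Both strains are of the W303 background, mating type MATa, and share the nutritional markers ade2-1 and ura3-1, then his3-11, 15 with trp1-1, further leu2-3, 112, and also can1-100 and rad5-535. SML1 is deleted in both. Its product restrains ribonucleotide reductase, which supplies deoxyribonucleotides. The control strain, sml1Δ, carries the deletion as sml1_delta::URA3. The second strain, sml1Δ SSDDCS, carries it as sml1_delta::HphNT and has 3 further constructs from which galactose drives 6 replication initiation factors. These are Sld7 with Cdc45 at leu2, SLD3-A with Dbf4-A at his3, and Sld2 with Dpb11 at trp1, each couple under the divergent GAL1-10 promoter. The control has none of the 3 constructs, so the constructs and the over-expression cannot be told apart, and neither can the markers used for the deletion.

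Histones H2A, H2B, H3 and H4 package DNA into nucleosomes, and a cell must double its supply as the genome is copied. In yeast, transcription of these genes is largely confined to late G1 and S-phase, and each pair is read outwards from a shared promoter between its genes. The time at which the genes themselves are copied sets when their dosage doubles within the same S-phase. Replication starts at origins, which are bound by the origin recognition complex at a short element called the ARS consensus sequence, and forks from the nearest active origins then copy the flanking DNA.

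On the R64 assembly, HTA1-HTB1 covers chrIV:914317-915928 and encodes the first copies of H2A and H2B. HTB1 lies on the minus strand at 914317 to 914712 and HTA1 on the plus strand at 915530 to 915928. HTA2-HTB2, the second copies of the same histones, covers chrII:235394-236887. HHF1-HHT1, which encodes H4 and H3, covers chrII:255373-256741, 18485 bases to the right of HTA2-HTB2 on the same chromosome. HHF2-HHT2, the second copies of H4 and H3, covers chrXIV:575640-577038. The promoter regions between the coding sequences are 817, 699, 646 and 676 bases long in that order. The first 3 pairs overlap 2 bins each, and HHF2-HHT2 overlaps 3, the last of them by only 38 bases.

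The copies of a histone gene are similar, so the reads could in principle be mistaken for one another. Coding sequences were identical at 93.7% of positions between HTA1 and HTA2, 87.9% between HTB1 and HTB2, 93.2% between HHT1 and HHT2 and 97.4% between HHF1 and HHF2. The longest identical run was 80 bases, in HHF1 and HHF2. The authors counted uniquely mapped reads, and between 94.4% and 100.0% of the positions in each member bin start a stretch of 50 bases that occurs once in the reference genome. GC content of the member bins was 34.0% to 42.7%, inside the 5th to 95th percentile range of all bins (33.4% to 44.1%).

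The surroundings of the pairs differ in where the annotated origins lie, and the origins nearest to 3 of the pairs are shown because they are the candidate start sites closest to the genes. ARS428 (chrIV:913790-914038) lies in intergenic DNA 279 bases to the left of HTA1-HTB1. ARS208 (chrII:237787-237900) lies in intergenic DNA 900 bases to the right of HTA2-HTB2. ARS209 (chrII:254998-255083) lies in intergenic DNA 290 bases to the left of HHF1-HHT1, and its midpoint falls in a member bin. The sequences are from RefSeq on R64, plus strand, and capitals mark an exact match to the ARS consensus sequence on either strand.
ARS428: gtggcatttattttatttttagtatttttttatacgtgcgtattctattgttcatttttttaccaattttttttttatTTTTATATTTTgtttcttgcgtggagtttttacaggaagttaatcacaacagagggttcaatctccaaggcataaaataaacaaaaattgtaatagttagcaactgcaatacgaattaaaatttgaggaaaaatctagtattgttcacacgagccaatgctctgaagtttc
ARS208: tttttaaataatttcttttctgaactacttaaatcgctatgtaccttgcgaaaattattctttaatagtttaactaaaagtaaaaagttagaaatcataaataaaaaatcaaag
ARS209: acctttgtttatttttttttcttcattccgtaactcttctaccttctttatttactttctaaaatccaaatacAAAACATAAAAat

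ARS428 holds 1 match on the plus strand, ARS209 holds 1 on the minus strand and ARS208 holds none. An exact match occurs in 124 of the 352 annotated nuclear origins (35.2%) and in 1.6% of consecutive stretches of 250 bases of the genome. HTA1-HTB1 has a second annotated origin nearby, ARS429 (chrIV:921692-921939), 5764 bases to the right and overlapping PCF11. HTA2-HTB2 also lies 1320 bases from the centromere CEN2 (chrII:238207-238323), and HHF1-HHT1 lies 17050 bases from it. HHF2-HHT2 is the pair without an annotated origin at its side. The closest is ARS1423 (chrXIV:568219-568524), 7116 bases to the left in the gene YNL035C, and the next on the right, ARS1424, is 32482 bases away.

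The 4 promoter regions were searched for an element already linked to histone genes, so matches there are no independent finding. The pattern, sought on both strands, was GNGAA, then any 6 bases, then GGAA. It is a form of the paired element bound by Spt10, an activator of the histone genes. All 4 regions hold a match, and the sites are shown with the fixed letters in capitals, each read 5′ to 3′ on its own strand.
HTA1-HTB1, minus strand, chrIV:915114-915128: GcGAAaattttGGAA
HTA1-HTB1, plus strand, chrIV:915137-915151: GcGAAgctattGGAA
HTA2-HTB2, plus strand, chrII:236108-236122: GaGAAataatgGGAA
HHF1-HHT1, plus strand, chrII:255944-255958: GaGAAgcgctcGGAA
HHF2-HHT2, plus strand, chrXIV:576346-576360: GcGAAgtgctcGGAA

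HTA1-HTB1 holds 2 sites, on opposite strands, and the other pairs hold 1 each. The same pattern occurs in 26 of 310 divergent intergenic regions of 600 to 850 bases (8.39%, the 4 histone regions included) and in 3.51% of consecutive stretches of 700 bases. A match is a description of the sequence and no measure of binding.

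In the control strain all 4 pairs replicated before the genome median, and 3 of them were among the earliest regions. The replication time (Trep) of a bin is the time at which a sigmoid fitted to its copy number ratio, rising from 1 to 2 copies, passes 1.5, and a pair's Trep is the mean over its bins. Errors are robust SDs between adjacent windows of as many bins, and ranges in parentheses are 95% intervals made from them. HHF1-HHT1 had a Trep of 18.0 ± 0.961 min, HTA2-HTB2 of 18.6 ± 0.961 min and HTA1-HTB1 of 18.7 ± 0.961 min, against a genome median of 23.5 min. Of all windows of 2 bins, 0.706%, 2.96% and 3.21% had a lower Trep than these pairs. HHF2-HHT2 followed at 21.0 ± 0.904 min, and 22.9% of windows of 3 bins were earlier.

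The ratios show these courses directly. In sml1Δ, HTA1-HTB1 had a ratio of 1.31 at 15 min, then of 1.56 (20 min), 1.91 (25 min) and 1.97 (30 min), and between 1.88 and 1.99 from then on. HTA2-HTB2 had a ratio of 1.18 at 15 min, then of 1.63 (20 min) and 1.997 (25 min). HHF1-HHT1 had a ratio of 1.24 at 15 min, then of 1.69 (20 min), 1.89 (25 min) and 2.05 (30 min). At 5 and 10 min the 4 pairs lay between 0.991 and 1.04, near the G1 level. These 3 pairs were therefore close to fully copied by 25 to 30 min, when the median of all bins was 1.61 and 1.79. HHF2-HHT2 ran behind them, with ratios of 1.07 (15 min), 1.42 (20 min) and 1.83 (25 min).

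**Figure D1:**
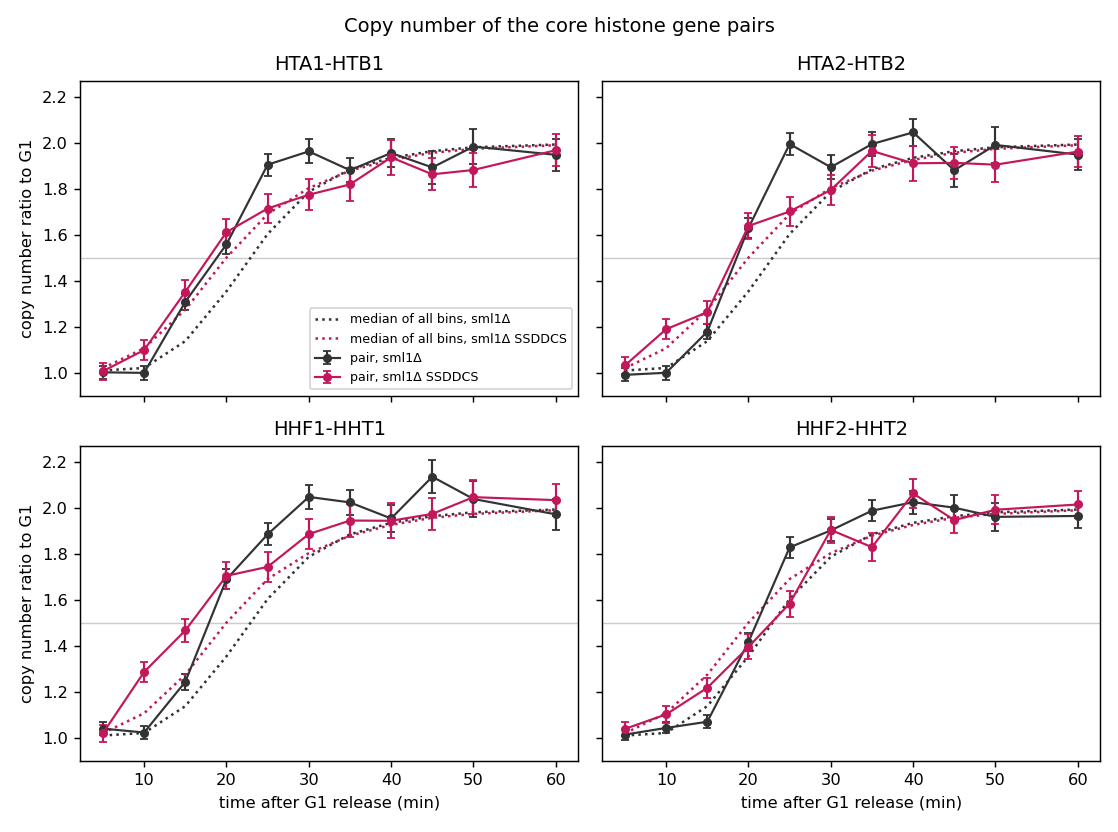
Copy number ratio to G1 (vertical axis) against minutes after release (horizontal axis) for each pair, as the mean over its bins with the window error, with the median of all bins of the same table as dotted lines. In sml1Δ the 4 pairs stand above the dotted line at 20 and 25 min, and in sml1Δ SSDDCS they lie between 1.59 (HHF2-HHT2) and 1.75 (HHF1-HHT1) at 25 min, around the dotted line at 1.69.

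In SSDDCS the genome as a whole replicated earlier, but the Trep of no histone pair differed between the strains by more than its interval. The genome median was 20.9 min in SSDDCS, and the median difference over all bins, SSDDCS minus sml1Δ, was −2.38 min. HTA1-HTB1 was copied at 20.4 ± 1.56 min in SSDDCS, a difference of 1.74 min (−1.71 to 5.19). HTA2-HTB2 was copied at 19.3 ± 1.56 min, a difference of 0.689 min (−2.76 to 4.14). HHF2-HHT2 was copied at 22.3 ± 1.41 min, a difference of 1.31 min (−1.55 to 4.18). HHF1-HHT1 alone had a negative difference, of −1.63 min (−5.08 to 1.82), with a Trep of 16.4 ± 1.56 min. These calls depended on the fit and on the scaling of whole tables. With a scale fitted per bin the difference of HHF1-HHT1 was −2.33 min (−4.55 to −0.0976). When SSDDCS was given the bulk factors of sml1Δ, the differences of HTA1-HTB1 and HHF2-HHT2 were 4.30 and 3.37 min, and without the 20-min tables that of HTA1-HTB1 was 4.07 min, each beyond the interval.

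The place of the pairs in the order of replication was read as the share of earlier windows. In SSDDCS, 44.5% of windows were earlier than HTA1-HTB1, 30.5% earlier than HTA2-HTB2 and 64.4% earlier than HHF2-HHT2, while 3.13% were earlier than HHF1-HHT1. Moving each Trep by its error changed these shares by about 17.9, 18.8, 12.9 and 7.23 percentage points in that order, and those of sml1Δ by 5.28, 5.01, 8.96 and 2.57. The lead of HTA1-HTB1 over the genome median went from 4.81 min in sml1Δ to 0.474 min in SSDDCS, and that of HTA2-HTB2 from 4.86 to 1.58 min. HHF2-HHT2 had a lead of 2.53 min in sml1Δ and of −1.38 min in SSDDCS, where it came after the median. HHF1-HHT1 led by 5.47 and 4.50 min. The Trep of HTA1-HTB1 in SSDDCS, and so its place, depended on the setting. It was 16.8 min with a scale fitted per bin, 17.8 min by linear interpolation and 17.6 min with 1 more bin on each side. With the bulk factors of sml1Δ it was 22.99 min. That of HHF2-HHT2 was 18.7 min with only bins that have 500 bases in the span, and 24.4 min with those bulk factors. Shares and leads were not recomputed with these settings.

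**Figure D2:**
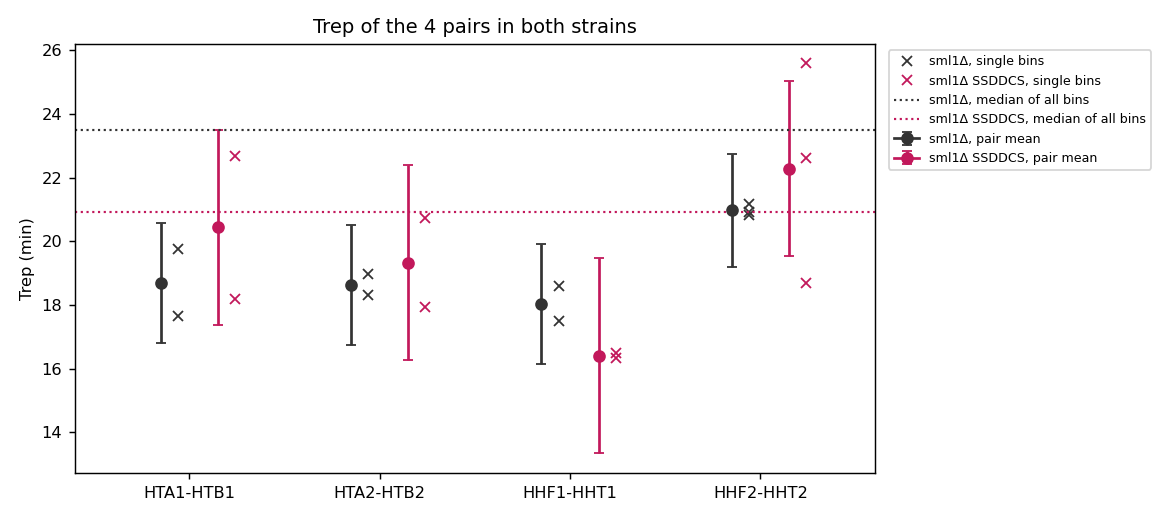
Trep in minutes (vertical axis) of each pair (horizontal axis) in both strains, with points for pair means, bars for 95% intervals from the window error, crosses for single bins and dotted lines for the median of all bins. The control pairs lie below their dotted line at 23.5 min, whereas in sml1Δ SSDDCS HTA1-HTB1 lies at 20.4 min and HHF2-HHT2 at 22.3 min, by their dotted line at 20.9 min.

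A further measure, chosen after the data were seen, is the pair's difference minus the genome median difference. That median is taken over the differences of single bins, so the measure does not equal the change in lead. It was 4.12 min (0.670 to 7.58) for HTA1-HTB1 and 3.69 min (0.829 to 6.56) for HHF2-HHT2, beyond the interval in both. It was 3.07 min (−0.383 to 6.52) for HTA2-HTB2 and 0.750 min (−2.70 to 4.20) for HHF1-HHT1, within it. Over the genome, 10.8% of 2-bin windows and 13.7% of 3-bin windows lay beyond the limit in this direction. With a scale fitted per bin the value for HTA1-HTB1 was 1.58 min (−0.647 to 3.81), and with 1 more bin on each side it was 1.88 min (−0.668 to 4.44), so that call was lost. With only bins that have 500 bases in the span, the value for HHF2-HHT2 was 0.216 min (−4.61 to 5.05) from 1 bin, and that call was lost too.

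Single bins show how uneven the SSDDCS values were within a pair. Of the 9 member bins, 5 were earlier in SSDDCS and 4 later, while 76.6% of all bins were earlier. This count moved with the scaling. With a scale fitted per bin, 6 member bins were earlier, against 84.7% of all bins, and when SSDDCS was given the bulk factors of sml1Δ, 0 were, against 52.4%. In the fit from 1 to 2 copies no member bin was earlier beyond the 95% limit of 4.83 min for 1 bin, against 23.9% of all bins, and 1 was later beyond it, against 1.96%. That bin holds HTA1 and went from 17.7 to 22.7 min, a difference of 5.04 min. Its partner bin, which holds HTB1, went from 19.8 to 18.2 min, a difference of −1.55 min.

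The bin of HTA1 reached a mean ratio of 1.87 from 45 to 60 min in SSDDCS, where the median bin reached 1.98 and 9.41% of bins were lower. With a scale fitted per bin, which multiplies the whole fitted curve and not only its late level, its difference was −1.16 min. The bin of HTA2 had a similar low plateau of 1.85, and its difference of 1.76 min became −0.844 min. The part of the plateau in these differences was not tested. The bins of HTB2, HHF1 and HHT1 had differences of −0.382, −1.15 and −2.11 min.

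The 3 bins of HHF2-HHT2 were close together in sml1Δ, at 21.2, 20.8 and 20.9 min, and far apart in SSDDCS, at 22.6, 18.7 and 25.6 min. Their differences were 1.43, −2.16 and 4.67 min, and the last is the bin that only 38 bases of HHF2 reach. The sign of the pair's difference therefore depends on which bins are taken, since the middle bin alone gives −2.16 min (−6.99 to 2.66). Over all 9 member bins the median difference was −0.382 min, beside −2.38 min over all bins. It was −0.844 min, beside −2.66 min, with a scale fitted per bin, and 2.45 min, beside −0.206 min, with the bulk factors of sml1Δ, so its sign depended on the scaling.

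The fitted rise of the pairs was also longer in SSDDCS. It was taken only from the fit from 1 to 2 copies, not with a scale per bin or other bulk factors. The rise time, in which the fitted ratio goes from 1.25 to 1.75, averaged 6.10 min in sml1Δ and, over the same member bins, 13.7 min in SSDDCS. It was longer in SSDDCS in 9 of 9 member bins, as it was in 70.7% of all bins, whose median rose from 10.3 to 12.6 min. For HTA1-HTB1 it was 7.53 and 16.6 min, for HTA2-HTB2 4.92 and 13.6 min, for HHF1-HHT1 5.88 and 13.1 min, and for HHF2-HHT2 6.09 and 12.2 min. In sml1Δ each pair thus rose faster than the median bin. In SSDDCS HHF2-HHT2 alone had a shorter rise than the median bin, but rise times have no error here. The share of windows with a shorter rise in SSDDCS was 42.2% for HHF2-HHT2, 54.2% for HHF1-HHT1, 59.8% for HTA2-HTB2 and 87.45% for HTA1-HTB1. All but HTA1-HTB1 were thus around the middle. HTA1-HTB1 had the longest rise of the 4 pairs in both strains. In SSDDCS its bins were uneven, with 21.5 min for the bin of HTA1, whose late ratio was low, and 11.7 min for that of HTB1. The part of the late ratio in these rise times was not tested.

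The ratio divided by the median of its own table does not depend on the flow cytometry factor, and it shows at which time points the strains parted. At 25 min, a time singled out after the values were seen, it went for HTA2-HTB2 from 1.24 in sml1Δ to 1.007 in SSDDCS, a difference of −0.238 (−0.328 to −0.147). For HHF2-HHT2 it was 1.14 and 0.937, a difference of −0.203 (−0.278 to −0.129). For HTA1-HTB1 it was 1.19 and 1.014, a difference of −0.175 (−0.265 to −0.0840), and for HHF1-HHT1 1.18 and 1.03, a difference of −0.144 (−0.235 to −0.0538). All 4 pairs were lower in SSDDCS beyond the window limit, against 24.7% of 2-bin windows and 29.4% of 3-bin windows. These shares are over the whole genome, and other early regions were not set apart for this measure. The table median at this time was 1.605 in sml1Δ and 1.692 in SSDDCS. A region with the same ratio in both strains would therefore also be lower in SSDDCS. Only 0.966% of windows had a lower difference than HTA2-HTB2, 2.07% than HHF2-HHT2, 5.57% than HTA1-HTB1 and 10.4% than HHF1-HHT1.

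With 1 more bin on each side the 4 differences at 25 min ranged from −0.181 to −0.131, each beyond its interval. With only bins that have 500 bases in the span, HHF2-HHT2 rested on 1 bin and its difference was −0.125 (−0.253 to 0.00225), within its interval.

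Around this time fewer pairs differed. At 20 min HTA2-HTB2 (−0.112), HHF1-HHT1 (−0.113) and HHF2-HHT2 (−0.117) were lower in SSDDCS beyond the limit, as were 17.4% of 2-bin and 20.7% of 3-bin windows. At 30 min HTA1-HTB1 (−0.114) and HHF1-HHT1 (−0.101) were, with 12.1% of 2-bin windows. At 35 min HHF2-HHT2 was (−0.0808), with 7.2% of 3-bin windows. At 5, 15, 40, 45, 50 and 60 min no pair lay beyond its limit in either direction.

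One value ran the other way. HHF1-HHT1, the pair with ARS209 in its bin, had a ratio at 10 min of 1.02 in sml1Δ and 1.29 in SSDDCS, and relative to the table median it was higher in SSDDCS by 0.160 (0.0635 to 0.257). Of 2-bin windows, 2.75% were higher beyond the limit at this time, and 99.9% had a lower difference than this pair. HTA2-HTB2 had a ratio of 1.19 at 10 min in SSDDCS and a relative difference of 0.0956 (−0.00112 to 0.192), within its interval. HTA1-HTB1 and HHF2-HHT2 stood at 1.099 and 1.102 in SSDDCS, where the table median was 1.11.

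**Figure D3:**
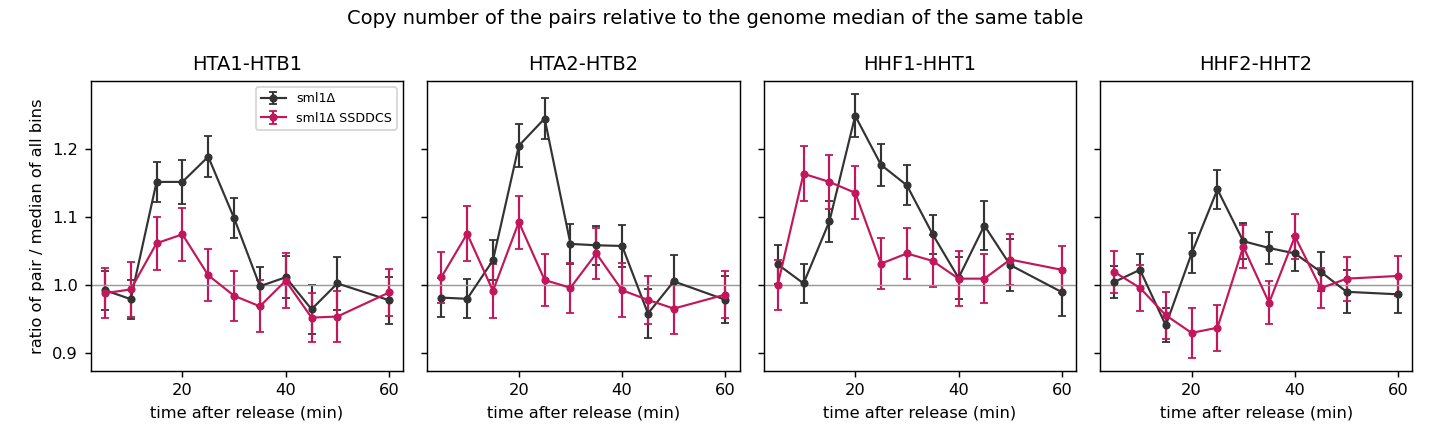
Ratio of each pair divided by the median of all bins of the same table (vertical axis) against minutes after release (horizontal axis), with the window error, in both strains. The sml1Δ curves peak at 20 or 25 min, up to 1.25 at 20 min for HHF1-HHT1, and the SSDDCS curves are lower at 25 min, while HHF1-HHT1 in SSDDCS is already high at 10 min.

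The pairs had the same order in both strains, HHF1-HHT1 first, then HTA2-HTB2, HTA1-HTB1 and HHF2-HHT2. However, no neighbours in that order differed beyond their interval. Of the 6 comparisons between pairs in each strain, only HHF1-HHT1 against HHF2-HHT2 lay beyond its interval. HHF1-HHT1 was earlier by a difference of −2.94 min (−5.53 to −0.357) in sml1Δ and −5.89 min (−10.01 to −1.76) in SSDDCS. Both calls were lost with only bins that have 500 bases in the span, at −2.80 min (−5.86 to 0.247) and −2.27 min (−7.35 to 2.80). With 1 more bin on each side the call was lost in sml1Δ, at −2.53 min (−5.34 to 0.277), and held in SSDDCS. These pairs encode the same histones. HTA1-HTB1 and HTA2-HTB2, which also encode the same histones, differed by 0.0541 min (−2.61 to 2.72) in sml1Δ and 1.11 min (−3.23 to 5.44) in SSDDCS. The order itself depended on the setting. With a scale fitted per bin HTA1-HTB1 came first in sml1Δ, at 17.9 min, with HHF1-HHT1 at 18.35 min. In SSDDCS the same fit put HTA1-HTB1 before HTA2-HTB2, at 16.8 and 17.7 min. Without the 20-min tables HTA1-HTB1 and HTA2-HTB2 preceded HHF1-HHT1 in sml1Δ, at 17.4, 17.6 and 18.4 min.

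Against their own flanks, 3 to 10 kb from the span, no pair differed within a strain by more than its interval. For HHF1-HHT1 and HHF2-HHT2 this depended on the setting. In sml1Δ HTA1-HTB1 differed from the mean of 12 flanking bins by −0.439 min (−2.45 to 1.57), HTA2-HTB2 from 11 bins by −0.711 min (−2.73 to 1.31) and HHF1-HHT1 from 6 bins by −0.930 min (−3.05 to 1.19). The flanks of HHF1-HHT1 were all on its left, because the right side held no fitted bin. HHF2-HHT2 differed from 8 bins by −1.72 min (−3.69 to 0.241). None of these 4 differences lay beyond its interval, and the flanks of the pairs on chromosome II shared no bin.

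In SSDDCS the differences from the flanks were 1.98 min (−1.30 to 5.26) for HTA1-HTB1, −0.862 min (−4.16 to 2.44) for HTA2-HTB2, −3.20 min (−6.68 to 0.284) for HHF1-HHT1 and −2.51 min (−5.62 to 0.591) for HHF2-HHT2. HHF1-HHT1 lay beyond its interval in SSDDCS against flanks of 1 to 5 kb, at −3.76 min (−7.43 to −0.0841), against flanks of 10 to 20 kb, at −5.17 min (−8.38 to −1.96), and without the 5-min or the 25-min tables, at −3.71 and −3.50 min. HHF2-HHT2 did so in SSDDCS with only bins that have 500 bases in the span, at −6.13 min (−10.42 to −1.84), and without the 25-min tables, at −3.14 min. In sml1Δ it did so without the 15-min or the 25-min tables, at −1.97 and −2.54 min, the first by a very small margin. The calls without some tables use the error of the reported value, which was not recomputed for fewer time points. The strain difference of a pair minus that of its flanks was within its interval for every pair when both sides were used. For HTA1-HTB1 it was 2.42 min (−1.30 to 6.15). Against its right flank alone it was 4.07 min (0.0911 to 8.04), beyond the interval, and against its left 0.776 min (−3.20 to 4.75).

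The flanks of HHF2-HHT2 were not alike on its sides. The pair was earlier than the 6 bins on its right, away from ARS1423, by a difference of −2.80 min (−4.82 to −0.771) in sml1Δ and −4.00 min (−7.21 to −0.790) in SSDDCS. Against the 2 fitted bins on its left, towards ARS1423, the difference was 1.49 min (−0.962 to 3.95) and 1.955 min (−2.02 to 5.93).

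The origins nearest to the pairs were themselves early in sml1Δ. The bin of ARS428 was copied at 17.0 min there and at 14.5 min in SSDDCS, earlier than HTA1-HTB1 beside it in both. That of ARS429, on the other side, was copied at 20.5 and 18.5 min. Its fitted value was above the pair's in sml1Δ and below it in SSDDCS. The bin of ARS208 was copied at 20.2 and 19.6 min, later than HTA2-HTB2 in both strains, and that of CEN2 at 18.2 and 18.7 min. The bin of ARS209, itself a member, was copied at 17.5 and 16.3 min. ARS1423 was copied at 19.2 and 19.1 min, before HHF2-HHT2 in both strains. Each origin value rests on 1 bin, whose error was 1.23 min (sml1Δ) or 2.06 min (SSDDCS). No interval was computed for an origin against its pair. The orders given here, with the switch at ARS429, therefore compare fitted values only and were not tested.

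**Figure D4:**
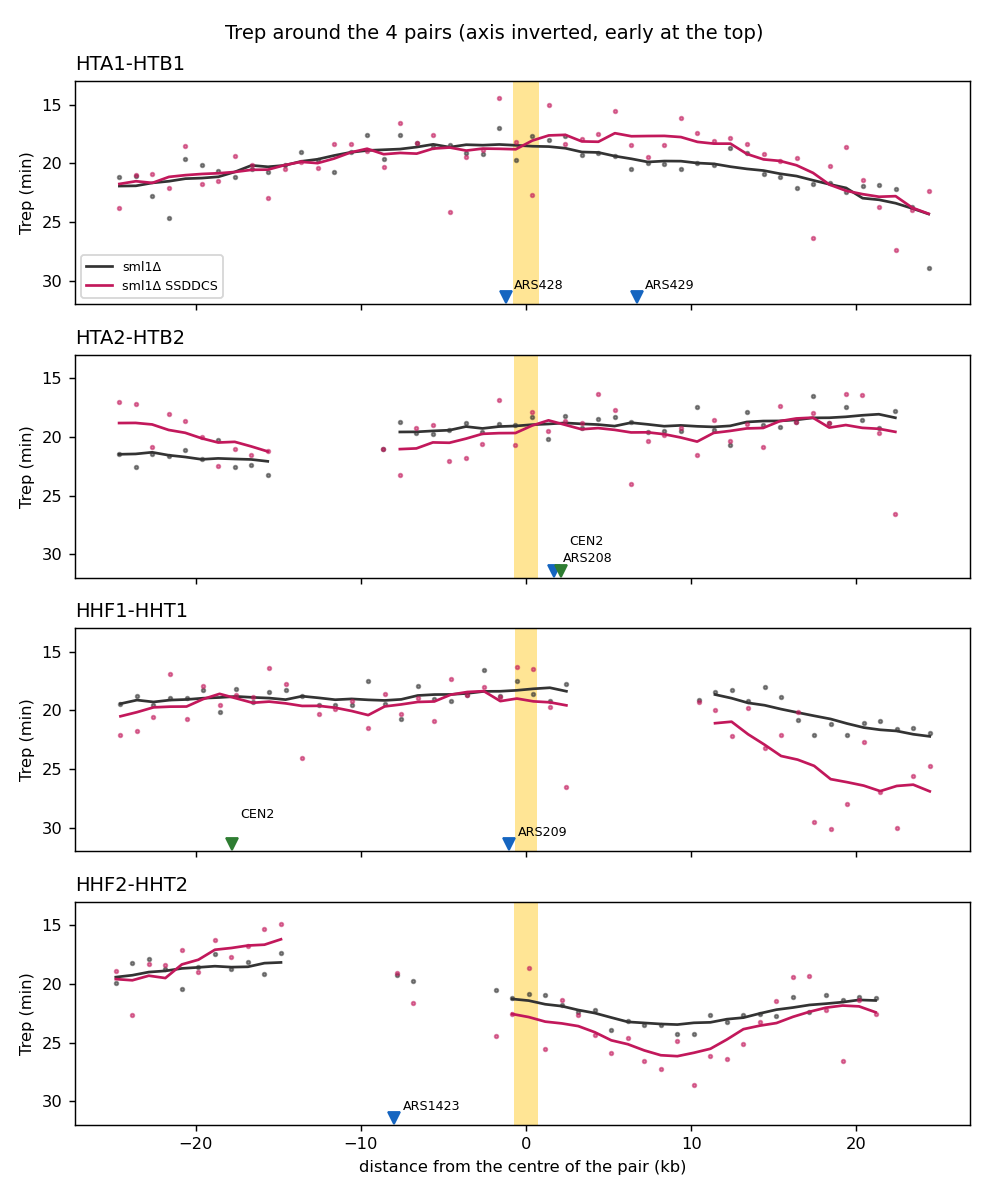
Trep in minutes (vertical axis, inverted so that early is at the top) against the distance in kb from the centre of each pair (horizontal axis), with points for single bins and lines for a moving average over 9 bins, broken where bins are missing. Yellow bands mark the pairs, blue triangles annotated origins and green triangles centromeres. In sml1Δ the first 3 pairs lie on broad early stretches, and HHF2-HHT2 lies on a slope that falls away to the right.

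Other early parts of the genome give a scale for the change. The earliest 10% of bins in sml1Δ, which hold 5 of the 9 member bins, had medians of 18.9 and 18.1 min in the strains and a median difference of −0.549 min. Bins within 25 kb of a centromere, 4 of them members, had medians of 19.6 and 19.2 min and a median difference of −0.457 min. The median difference of the member bins was −0.382 min. When a scale was fitted per bin, the medians were −0.844 min for the members, −1.67 min for the earliest bins and −1.08 min for those near centromeres, and with the bulk factors of sml1Δ they were 2.45, 1.91 and 1.82 min. The first group was chosen by its sml1Δ Trep, so its difference also holds the noise of that choice. Rise times were longer in SSDDCS in 96.7% of the earliest 10% and in 98.3% of the bins near centromeres.

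Other genes of the histone supply pathway, listed from textbook knowledge, had a median Trep in sml1Δ near that of all protein-coding genes. The 23 genes had a range of 19.5 to 31.9 min and a median of 23.5 min, against 23.6 min over all protein-coding genes. Of the 23, 17 had a later Trep than all 4 pairs in sml1Δ. Most of the genome did too, since only 22.9% of 3-bin windows were earlier than HHF2-HHT2, the latest pair. In the fit from 1 to 2 copies, 5 of the 23 were earlier in SSDDCS beyond the window limit, against 36.4% of all protein-coding genes. Later beyond it were 0, against 2.17%. These calls depended on the fit. With a scale fitted per bin, SPT21 had a difference of −4.31 min and HIR2 of 2.05 min, with a window error of 0.919 min for each. Both lay within the limit in the first fit. Without the limit, and in the fit from 1 to 2 copies, 15 were earlier and 8 later. Of all protein-coding genes 4620 were earlier and 1176 later. Their median difference was −1.69 min, beside −2.27 min over 5796 protein-coding genes.

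The 5 earlier genes were 2 regulators and 3 histone chaperones. SPT16, a subunit of the FACT complex that moves nucleosomes aside for polymerases, went from 27.9 to 21.2 min, a difference of −6.72 min. NAP1, an H2A-H2B chaperone, went from 23.5 to 17.4 min (−6.15 min, and −1.43 min with a scale fitted per bin). RTT106, an H3-H4 chaperone that also acts at histone promoters, went from 23.8 to 19.6 min. YTA7, an ATPase found at histone genes, went from 31.9 to 28.0 min, and HIR1, a subunit of the HIR repressor complex, from 21.4 to 17.6 min.

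None of the genes for the variants and the linker histone moved beyond the limit. HTZ1, which encodes the H2A variant H2A.Z, had values of 21.4 min (sml1Δ) and 21.6 min (SSDDCS). CSE4, the centromeric H3 variant, had values of 24.6 and 21.5 min, and HHO1, the linker histone, of 23.5 and 21.3 min. ASF1, an H3-H4 chaperone and the earliest of the list in sml1Δ, had values of 19.5 and 21.1 min. POB3, the partner of SPT16 in FACT, had values of 19.6 and 19.7 min, but a difference of −3.16 min with a scale fitted per bin (window error 0.978 min). SPT10, whose product binds the paired promoter element, had values of 22.9 and 23.1 min.

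**Figure D5:**
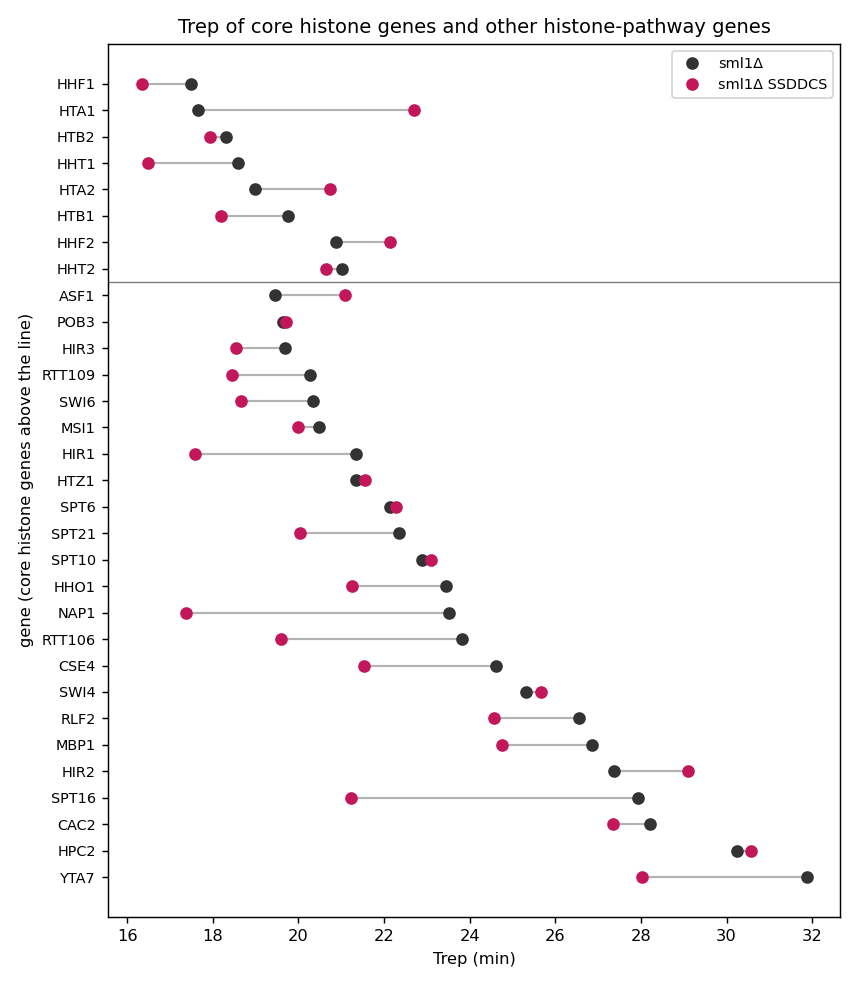
Trep in minutes (horizontal axis) of the 8 core histone genes, above the line, and of 23 other genes of the histone pathway, below it, sorted by their value in sml1Δ, with 1 point per strain joined by a line. The core genes lie between 17.5 and 21.0 min in sml1Δ, and the list below spans 19.5 to 31.9 min.

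The genes whose ratios over the 22 tables were most like each pair's were compared by the root mean square difference, over 5734 genes at least 20 kb from every pair. For HTA1-HTB1 these were IBD2 (0.0442), CDC27 (0.0443) and ECM9 (0.0443), where the median gene had 0.133. For HTA2-HTB2 they were ALG3 (0.0538), ECT1 (0.0551) and ATG18 (0.0551), against 0.144. For HHF1-HHT1 they were THI22 (0.0477), FAA1 (0.0547) and YGL007C-A (0.0561), against 0.162, and for HHF2-HHT2 they were ERG5 (0.0476), YDR338C (0.0484) and JSN1 (0.0488), against 0.120.

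The deposited tables held 11310 to 11322 bins each and no read counts, so the depth of the libraries is unknown. In its place, the noise between neighbouring bins was 3.85% to 5.34% in the sml1Δ tables and 4.89% to 5.67% in the SSDDCS tables, and a Trep of 1 bin had an error of 1.23 min in sml1Δ, against 2.06 min in SSDDCS.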

How the data were processed

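Genomic DNA of S. cerevisiae was sequenced in G1 and at 11 later times in each of 2 strains. The authors mapped the reads with Bowtie2 2.2.6 to the S288C reference (R64-2-1, sacCer3), although the strains are W303, and used those that mapped to 1 place, summed over 1-kb bins. The values in the 22 deposited tables are ratios, S-phase reads of a bin over its G1 reads in that strain, multiplied by the authors with a bulk factor (a deposited ratio between 1 and 2, from flow cytometry). The height of a whole table thus comes from flow cytometry. The 2 G1 samples enter only as denominators, which all time points of a strain share. Sample titles gave strain and time. A ratio within a strain cannot show the deleted or added genes, so the genotypes were not checked.

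A sigmoid from 1 to 2 copies was fitted by least squares to each bin and strain (Python 3.11.15 with numpy 2.4.6), and bins with 9 or more time points, a Trep of 5 to 60 min and an SE no larger than 5 min in each of the strains were kept (11302 of 11328). The fit was tested on simulated data in which all bins shared the same rise time and doubled fully. That test did not cover the longer rises and low plateaus seen in SSDDCS. Because 1 library was made per strain and time point, no test was run. The error of a value over several bins is the robust SD between adjacent windows of as many bins divided by the square root of 2, and 95% intervals assume that this error is normal. It holds the noise of the shared G1 library but not the spread between cultures. Genes, origins and centromeres came from the RefSeq annotation of R64, and all bins lay inside its chromosomes.

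The members, the histone gene list and the comparisons were chosen with earlier results of these data known. Named genes are the 8 members, origins and centromeres near them, the 23 listed genes and, for each pair, the 3 genes with the most similar ratios. Alternatives covered the shape of the fit, the bulk factors, the bins of a pair, the flanks and leaving out time points.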

Additional observations from a re-analysis of the deposited data

How the results depend on the processing

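Values were read as moved when they differed from the reported value by more than its error, and no value beyond its interval changed sign among the settings run. The strain differences of all 4 pairs, which were within their intervals, did change sign under some of them. Averaging the ratios before the fit (20 values), flanks of 1 to 5 kb (8 values) and leaving out bins within 50 kb of chromosome ends (12 values) moved no value by more than its error, although flanks of 1 to 5 kb took HHF1-HHT1 in SSDDCS past its interval (−3.76 min). Linear interpolation of 1.5 gave HTA1-HTB1 a Trep of 17.8 min in SSDDCS and a difference of −0.842 min, and put HHF2-HHT2 −0.512 min from its flanks in SSDDCS. Fitting a scale for each bin gave HTA1-HTB1 16.8 min in SSDDCS, a difference of −1.08 min, −0.283 min from its flanks and 1.58 min above the genome median difference. The same fit gave HTA2-HTB2 17.7 min and put HHF2-HHT2 −0.756 min from its flanks in SSDDCS. It gave HHF1-HHT1 a difference of −2.33 min (−4.55 to −0.0976), beyond its interval. When SSDDCS was given the bulk factors of sml1Δ, its Trep was 22.99, 21.9, 19.5 and 24.4 min for HTA1-HTB1, HTA2-HTB2, HHF1-HHT1 and HHF2-HHT2, and the differences were 4.30, 3.24, 1.49 and 3.37 min, while the values above the genome median difference stayed within error of those reported. Flanks of 10 to 20 kb gave −1.90 min (sml1Δ) and 0.268 min (SSDDCS) for HTA1-HTB1, −5.17 min (SSDDCS) for HHF1-HHT1, and 0.475 and 1.94 min for HHF2-HHT2. The left flank alone gave HHF2-HHT2 1.49 and 1.955 min, and the right alone −2.80 min in sml1Δ. The right flank of HHF1-HHT1 gave no value. Bins with 500 bases in the span gave HHF2-HHT2 18.7 min in SSDDCS, a difference of −2.16 min, −6.13 min from its flanks, 0.216 min above the genome median difference and −0.125 at 25 min. One more bin on each side, chosen after seeing the data, gave HTA1-HTB1 17.6 min in SSDDCS, a difference of −0.497 min, −0.858 min from its flanks and 1.88 min above the genome median difference, and HTA2-HTB2 −0.152 at 25 min. The cause of these changes was not tested.

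Leaving out each time point in turn moved 5 of 220 values, all without 20 min. Without it HTA1-HTB1 and HTA2-HTB2 were at 17.4 and 17.6 min in sml1Δ, with differences of 4.07 and 2.88 min, and HTA1-HTB1 was −1.91 min from its flanks. Differences ranged over 1.09 to 4.07 min for HTA1-HTB1, −0.687 to 2.88 min for HTA2-HTB2, −2.32 to −1.16 min for HHF1-HHT1, 0.723 to 2.13 min for HHF2-HHT2. Trep in sml1Δ ranged over 17.4 to 19.6 min for HTA1-HTB1, 17.6 to 19.4 min for HTA2-HTB2, 17.8 to 18.4 min for HHF1-HHT1, 20.8 to 21.3 min for HHF2-HHT2, and in SSDDCS over 19.9 to 21.5 min for HTA1-HTB1, 18.7 to 20.5 min for HTA2-HTB2, 15.7 to 17.1 min for HHF1-HHT1, 21.9 to 23.02 min for HHF2-HHT2. Against the flanks the ranges were −1.91 to 0.345 min for HTA1-HTB1, −1.55 to −0.157 min for HTA2-HTB2, −1.21 to −0.410 min for HHF1-HHT1, −2.54 to −0.856 min for HHF2-HHT2 in sml1Δ, and 1.69 to 2.38 min for HTA1-HTB1, −1.28 to −0.211 min for HTA2-HTB2, −3.71 to −2.69 min for HHF1-HHT1, −3.14 to −2.18 min for HHF2-HHT2 in SSDDCS. No paired analysis was possible because there was 1 sample for every strain and time, so no replicate numbers could serve as a block, and the strains were compared only time by time.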
